A study of Mus musculus with 6 samples.

Results

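Titin and the scaffold proteins of the Z-disc and M-band hold the contractile filaments of heart muscle in register. Captured methylated DNA was compared at 9 of their genes in mouse ventricle at postnatal day 14 (P14) and postnatal day 1 (P1). The genes are Ttn, Nebl, Mybpc3, Ldb3, Myom1, Myom2, Actn2, Cmya5 and Xirp2. All regions that the deposited table assigns to exactly these symbols were taken, and all 9 genes had at least 1. They gave 69 regions of the 213957 distinct regions in the table. All 69 count as peaks here because every region with a gene name was read as a peak. In all, 101253 regions were read as peaks, as described below.

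The P14 and P1 groups had 3 libraries each, from ventricles of male C57BL/6 mice with the atria removed. The labels call the tissue left ventricle, while the protocol describes ventricles with the septum intact, and they name no treatment or transgene at either age. Sonicated DNA was enriched with a methyl-CpG binding protein (MBD-seq), so a value is the number of captured reads over a region and not a methylation level per site. Whether a library came from 1 heart or from pooled hearts is not given in the sources used here, so p-values describe the spread between these libraries. The assay measures DNA of all cells of the ventricle, and the labelled tissue could not be checked against transcripts. Less methylation in a cell type and a smaller share of that cell type cannot be told apart.

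Titin spans from the Z-disc to the M-band as a molecular spring and ruler of the sarcomere. At the Z-disc, alpha-actinin 2 (Actn2) cross-links the thin filaments, while the PDZ-LIM protein of Ldb3 and the nebulin-like protein of Nebl bind there and help to anchor them. In the middle of the sarcomere, the myomesins (Myom1, Myom2) cross-link the thick filaments. Myosin binding protein C (Mybpc3) decorates the thick filaments of heart muscle and tunes the cross-bridge cycle. Cmya5, also called myospryn, encodes a large protein of the muscle cell's Z-discs and costameres that binds alpha-actinin and desmin, and Xirp2 encodes an actin-binding protein of the intercalated disc. After birth, heart muscle cells largely leave the cell cycle and enlarge, and their sarcomeres mature.

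The libraries held between 16284216 and 21512072 reads each. Peaks held 31.3%, 18.4% and 17.0% of reads in P14 replicates 1 to 3, against 11.6%, 13.4% and 12.6% in P1 replicates 1 to 3. P14 replicate 1 therefore stood apart by its enrichment. P1 replicate 1 stood apart by its empty peaks, of which it had 2392, against 30 in P1 replicate 2 and 37 in P1 replicate 3. At most 3 reads fell in 8 of the member peaks in P1 replicate 1, in 2 in P1 replicate 2 and in 1 in P1 replicate 3. Values below were scaled to the reads within peaks, in CPM (a library's reads in the peak relative to its TMM-scaled total of reads in peaks), and higher and lower refer to this scaling unless another is named. Many directions differed when values were scaled to the reads between peaks, as given beside each gene group.

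The median member peak was 917 bp wide, within a range of 437 to 2742 bp. Ttn had 17 peaks, Actn2 and Cmya5 9 each, Nebl 8, Ldb3 7, and Mybpc3, Myom1 and Myom2 6 each, while Xirp2 had 1. Per length of gene, Mybpc3 was the most densely marked of the 9, with 32.6 peaks per 100 kb, at percentile 95.2 of 10312 genes with a peak and a RefSeq span of at least 10 kb. Xirp2 had 1.24 and Nebl 2.04 peaks per 100 kb, at percentiles 4.3 and 8.9, against a median of 9.03 over these genes. Ttn, with 6.1 peaks per 100 kb over a span of 278578 bp, lay at percentile 34.8. Only genes with a peak were ranked, so a short gene cannot have a low value, and these percentiles depend on gene length too. All but 1 of the 69 peaks overlapped the RefSeq span of the gene they were assigned to. The table also assigns 12 of the peaks to a further gene, namely all 6 at Myom1, 5 at Ttn and the 1 at Xirp2. Exon and intron positions were not used here.

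Start sites are shown because peaks lay near only a few of them, and because the capture protein binds methylated CpG, so the CpG content of a sequence bounds what can be captured. RefSeq start-site windows of 250 bases before to 50 bases after the start were found for 8 members in the GRCm38.p6 table, for 12 start sites in all. Only at Myom1 did a peak overlap such a window, and that window belongs to a start inside the gene. The windows below are those with a member peak nearest to them, followed by the CpG-rich Nebl window. Each is printed 5′ to 3′ on the strand of the gene, with CpG in capitals, a motif that reads the same on both strands.
Cmya5, chr13:93144675-93144974, minus strand: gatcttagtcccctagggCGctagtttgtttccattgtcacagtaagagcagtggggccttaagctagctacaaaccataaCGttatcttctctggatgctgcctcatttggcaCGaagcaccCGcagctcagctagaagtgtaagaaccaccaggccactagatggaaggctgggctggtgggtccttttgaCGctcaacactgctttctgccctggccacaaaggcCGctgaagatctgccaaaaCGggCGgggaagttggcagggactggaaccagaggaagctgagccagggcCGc
Myom1, chr17:71019307-71019606, plus strand: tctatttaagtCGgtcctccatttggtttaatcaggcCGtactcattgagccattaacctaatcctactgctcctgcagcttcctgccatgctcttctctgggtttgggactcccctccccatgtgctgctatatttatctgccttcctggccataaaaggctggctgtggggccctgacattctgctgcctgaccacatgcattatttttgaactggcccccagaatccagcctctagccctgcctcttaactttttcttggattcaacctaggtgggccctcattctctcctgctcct
Mybpc3, chr2:91117894-91118193, plus strand: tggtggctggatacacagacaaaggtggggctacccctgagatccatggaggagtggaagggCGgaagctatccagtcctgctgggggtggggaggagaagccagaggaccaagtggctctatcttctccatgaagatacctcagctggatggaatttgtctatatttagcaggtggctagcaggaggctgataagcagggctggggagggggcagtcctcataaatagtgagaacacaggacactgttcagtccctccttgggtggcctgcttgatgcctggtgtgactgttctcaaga
Nebl, start inside the gene, chr2:17670116-17670415, minus strand: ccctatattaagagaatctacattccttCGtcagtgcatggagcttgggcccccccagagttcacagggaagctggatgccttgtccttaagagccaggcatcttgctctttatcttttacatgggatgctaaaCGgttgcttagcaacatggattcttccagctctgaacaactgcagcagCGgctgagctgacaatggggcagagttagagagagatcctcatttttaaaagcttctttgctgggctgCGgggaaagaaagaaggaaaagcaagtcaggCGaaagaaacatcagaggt
Nebl, upstream start, chr2:17731085-17731384, minus strand: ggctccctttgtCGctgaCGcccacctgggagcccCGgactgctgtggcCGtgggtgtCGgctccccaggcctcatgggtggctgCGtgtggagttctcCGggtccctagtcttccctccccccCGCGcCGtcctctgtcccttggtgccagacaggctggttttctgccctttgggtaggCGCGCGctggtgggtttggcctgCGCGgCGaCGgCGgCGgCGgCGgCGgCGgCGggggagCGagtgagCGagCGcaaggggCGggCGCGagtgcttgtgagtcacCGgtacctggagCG

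The Cmya5 window held 9 CpG, and 45.8% of all windows in the table held as many or more. The Myom1 window held 2 (85.9%), the Mybpc3 window 1 (94.6%) and the Nebl window inside the gene 5 (62.0%). The upstream Nebl window held 32, a number reached by 9.52% of windows. It lay in a stretch between peaks, 7967 bp from the nearest Nebl peak, and the windows of Actn2 (19 CpG), Ttn (8 CpG), Ldb3 and Xirp2 also lay between peaks. The Mybpc3 peak began 634 bp downstream of its window, the Nebl peak ended 575 bp upstream of the inner window, and the Cmya5 peak lay 868 bp upstream of its window.

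Within peaks, 3 member peaks passed the test, and all 3 were lower at P14. They were a peak upstream of the Cmya5 start, a peak in the middle of Cmya5 and a peak toward the 5′ end of Ttn. Of the 69 peaks, 66 passed the filter on low counts and were tested, and 0 were gained and 3 lost. The call was edgeR's quasi-likelihood test with a threshold of 0.05 on the p adjusted by Benjamini-Hochberg. By it, 0.105% of all 96772 tested peaks gained signal and 2.44% lost it. At an unadjusted p under 0.05 there were 8 of the 66 member peaks (12.1%), against 7.6% of all tested peaks. DESeq2 called 0 member peaks gained (0.104% of all) and the same 3 lost (3.34% of all). Limma-voom called 0 gained (0.104% of all) and 3 lost (4.34% of all), with a further Ttn peak in place of the upstream Cmya5 peak. The median log2 change was -0.12 over the members and -0.01 over all peaks.

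**Figure D1:**
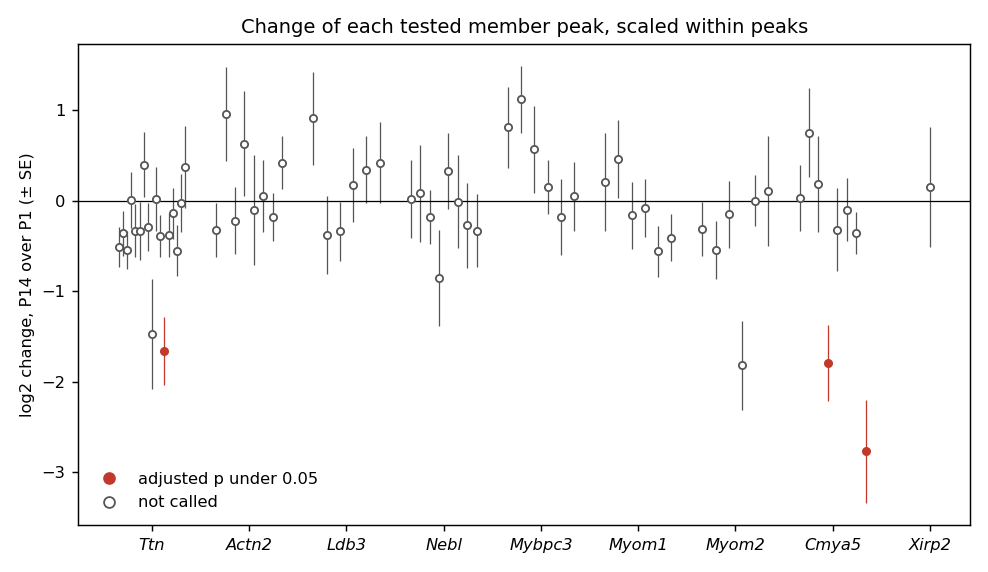
Log2 change (P14 over P1, y axis) with its standard error for each of the 66 tested peaks, grouped by gene on the x axis and ordered by position within a gene. The 3 filled points, 1 at Ttn and 2 at Cmya5, are the peaks with an adjusted p under 0.05, all below 0.

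The Cmya5 peak with the largest change lay 868 bp upstream of the start window shown above, on chromosome 13 from 93145842 to 93146925 and within the RefSeq span of the neighbouring gene Tent2. It held 7, 10 and 1 reads in P14 replicates 1 to 3, against 25, 22 and 11 in P1 replicates 1 to 3. That came to 1.31 ± 1.15 CPM at P14 and 9.29 ± 3.96 CPM at P1 (SD, n = 3 each). The ages did not overlap, and the lowest P1 library lay at 5.05 CPM, above the highest P14 library at 2.59 CPM. The fall was 6.82-fold, a log2 change of -2.77 (SE 0.57, adjusted p = 0.025). The peak passed the filter on low counts through its P1 libraries alone. No P14 library reached the filter's level.

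The second Cmya5 peak lay inside the gene, on chromosome 13 from 93082738 to 93083600. It held 13, 17 and 14 reads at P14 and 33, 24 and 19 at P1. Scaled, these were 1.81, 4.41 and 5.05 CPM in P14 replicates 1 to 3, against 17.0, 10.8 and 8.72 CPM in P1 replicates 1 to 3. Every P14 library was below every P1 library, with a log2 change of -1.79 (SE 0.42, adjusted p = 0.0327).

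The Ttn peak lay on chromosome 2 from 76933760 to 76934709, at 17.3% of the gene's length from its 5′ end. It held 21, 21 and 15 reads at P14 and 41, 26 and 20 at P1. In CPM it was at 2.92, 5.45 and 5.42 in P14 replicates 1 to 3, against 21.1, 11.7 and 9.18 in P1 replicates 1 to 3. The ages did not overlap here either, with a 3.15-fold fall (log2 change -1.66, SE 0.38, adjusted p = 0.0307).

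In all 3 of these peaks P1 replicate 1 was the highest P1 library, as it was in 82.3% of all lost peaks and in 38.1% of all tested peaks. P14 replicate 1 was the lowest P14 library in 2 of the 3. Their part in the result was not tested beyond leaving each library out. Without P1 replicate 1 the upstream Cmya5 peak still passed (log2 change -2.46, adjusted p = 0.0496), while the inner Cmya5 peak (-1.48, adjusted p = 0.0934) and the Ttn peak (-1.24, adjusted p = 0.12) did not. Without P14 replicate 1, P14 replicate 2, P14 replicate 3 or P1 replicate 2 none of the 3 passed, and without P1 replicate 3 all 3 did. Of all peaks, 0.686%, 1.43% and 1.6% were lost without P1 replicates 1, 2 and 3, and 0%, 0% and 0.692% without P14 replicates 1, 2 and 3. Over these 6 fits the log2 changes ran from -3.5 to -2.44 at the upstream Cmya5 peak, from -2.02 to -1.33 at the inner one and from -1.88 to -1.24 at Ttn. All 3 stayed lower at P14 when scaled to the reads between peaks, with log2 changes of -1.69, -0.76 and -0.6, but none passed there.

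**Figure D2:**
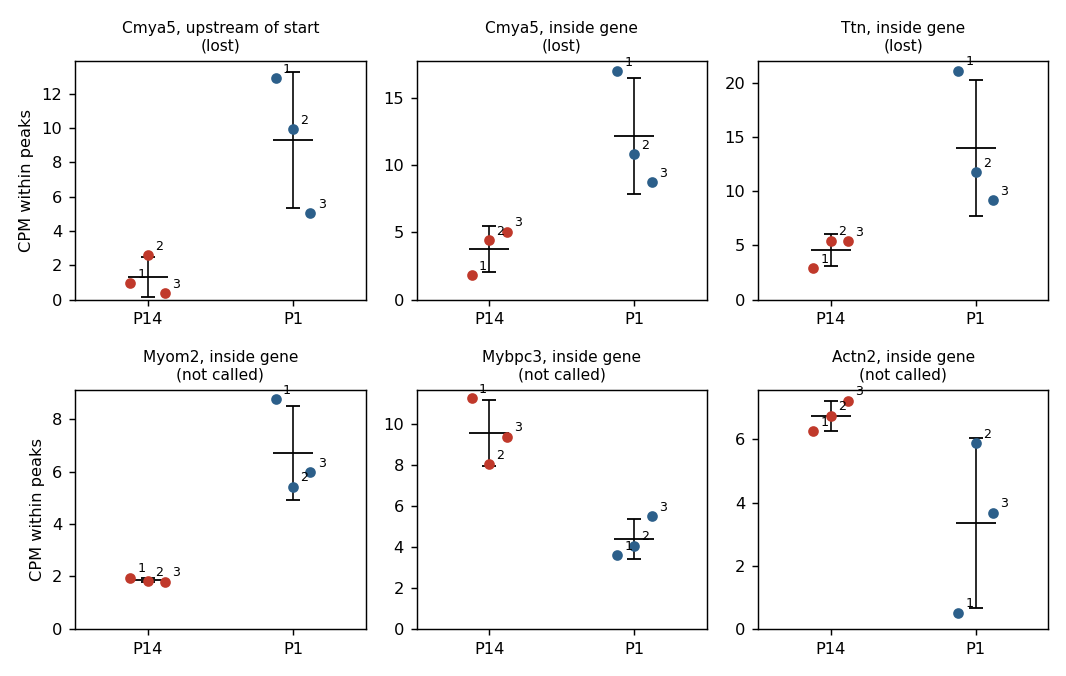
CPM within peaks (y axis) in each library, P14 left and P1 right, for the 3 lost peaks (top row) and 3 peaks that were not called (bottom row). Numbers beside points are replicate numbers, horizontal marks are means and bars are SDs. P14 points lie below all P1 points in the Cmya5, Ttn and Myom2 panels and above them in the Mybpc3 and Actn2 panels.

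Reads in a peak can also be set against the stretches that flank it in the same library, which needs no scaling between libraries. The peak reads are those that the test used, so the ratio is not separate from the test. The upstream Cmya5 peak had 0.856, 1.34 and 0.164 times the read density of its flanks in P14 replicates 1 to 3, against 2.79, 2.74 and 1.25 times in P1 replicates 1 to 3. At the lost Ttn peak the ratio was 1.41 ± 0.042 at P14 and 2.08 ± 0.524 at P1, and at the inner Cmya5 peak 2.39 ± 0.0896 at P14 and 4.78 ± 2.42 at P1 (SD, n = 3 each). Of 63 member peaks with a flanking stretch, 58 had a higher mean ratio at P14, with a median of 3.4 at P14 and 1.8 at P1. The exceptions were the 3 lost peaks, 1 further Ttn peak (76827283 to 76828009) and 1 Myom2 peak (15097168 to 15097653). Over all peaks and stretches of the genome the ratio of densities was 6.65 ± 3.12 at P14 and 3.23 ± 0.267 at P1 (SD, n = 3 each).

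Titin, the spring and ruler of the sarcomere, had its peaks mostly lower at P14 by small amounts when scaled within peaks, while 15 of the 17 were higher when scaled to the reads between peaks. Of its 17 tested peaks 13 were lower and 4 higher, with a median log2 change of -0.33, and 1 passed the test. In 7 of the 17 every P14 library was below every P1 library, and in 1 every P14 library was above. Among all tested peaks, groups did not overlap with P14 below in 7.12% and with P14 above in 4.77%. Neighbouring peaks of 1 gene share libraries and are not independent of each other.

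The most heavily captured Ttn peak (76738826 to 76741522, toward the 3′ end) was at 29.4, 33.2 and 29.2 CPM in P14 replicates 1 to 3, against 41.7, 48.3 and 43.2 CPM in P1 replicates 1 to 3. Its groups did not overlap, yet with a log2 change of -0.54 (SE 0.21) it did not pass the test over all peaks (adjusted p = 0.354), and scaled to the reads between peaks it was 0.56. A smaller peak in the middle of the gene (76827283 to 76828009) held 3, 16 and 11 reads at P14 and 17, 18 and 10 at P1. Its log2 change of -1.47 (SE 0.61) did not pass in edgeR (adjusted p = 0.433), while limma-voom called it (-3.03, adjusted p = 0.00526). P14 replicate 1 was the low library there, at 0.417 CPM beside 4.15 and 3.97 in the other P14 libraries. The Ttn peak with the smallest p among those higher at P14 (76808322 to 76809304) averaged 8.19 ± 1.67 CPM at P14 and 6.2 ± 1.14 CPM at P1 (SD, n = 3 each), with a log2 change of 0.4 (SE 0.36).

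**Figure D3:**
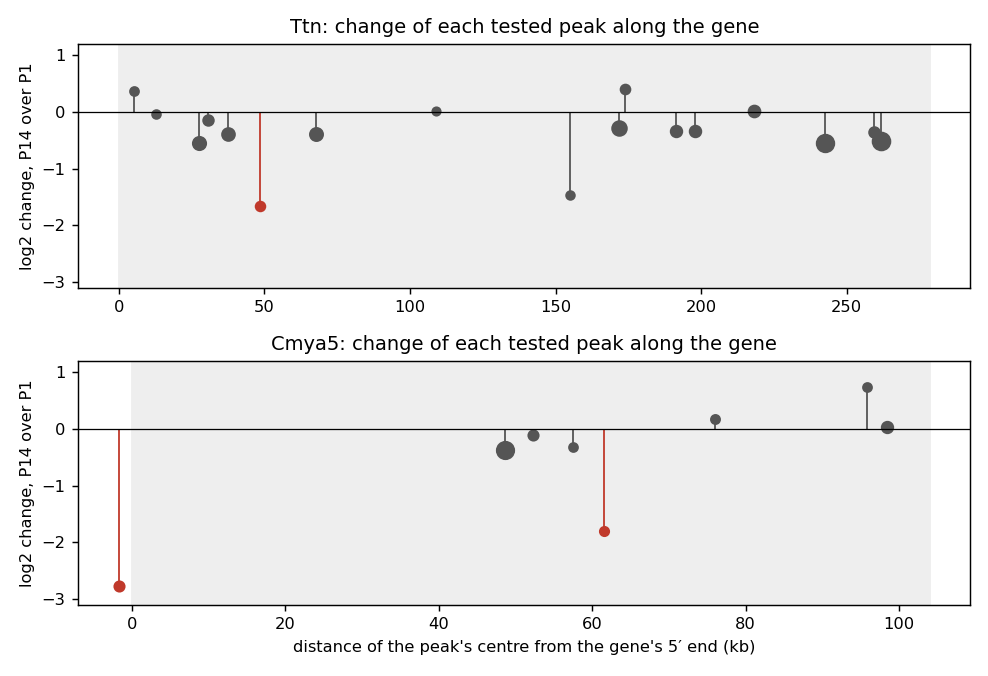
Log2 change (P14 over P1, y axis) of each tested peak of Ttn (top) and Cmya5 (bottom) against the distance of its centre from the 5′ end of the RefSeq span in kb (x axis). The shaded area is the gene span, larger points are wider peaks, and red marks the 3 lost peaks. The lost Cmya5 peak at the left lies outside the span, upstream of the start.

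At the Z-disc genes, 11 of 22 tested peaks were higher at P14 and 11 lower, with a median log2 change of 0.01, and 0 passed. All 22 were higher when scaled to the reads between peaks. The Actn2 peak with the smallest p (chromosome 13, 12274824 to 12275598) held 45, 26 and 20 reads at P14 and 1, 13 and 8 at P1. It averaged 6.74 ± 0.479 CPM at P14 and 3.35 ± 2.69 CPM at P1 (SD, n = 3 each), with a log2 change of 0.96 (SE 0.52, adjusted p = 0.836). P14 lay above P1 in every library, while P1 replicate 1 with its 1 read was far below the other P1 libraries, and without it the log2 change was lower, at 0.49. The Actn2 peak with the most reads (12291362 to 12292467) differed by less than its error, with a log2 change of -0.18 (SE 0.27). The lower peak with the smallest p, at the 3′ end of the gene (12268658 to 12269830), had overlapping ages and a log2 change of -0.32 (SE 0.3), or 0.77 when scaled to the reads between peaks. A second Actn2 peak, from 12295676 to 12296878, also had every P14 library above P1, at 12.5 ± 1.74 CPM against 9.42 ± 1.32 CPM (SD, n = 3 each), with a log2 change of 0.42 (SE 0.29).

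In Ldb3, whose product binds alpha-actinin, a peak on chromosome 14 from 34551667 to 34552578 held 34, 19 and 19 reads at P14 and 7, 3 and 8 at P1. The log2 change of 0.91 (SE 0.51, adjusted p = 0.876) did not pass. No P1 library reached the level of the filter on low counts, so this peak was tested through its P14 libraries alone. The Ldb3 peak with the most reads (34571080 to 34572192) averaged 7.87 ± 4.18 CPM at P14 and 7.32 ± 2.73 CPM at P1 (SD, n = 3 each), a difference within the spread between libraries. Lower at P14 without overlap was the peak from 34566503 to 34567679, at 7.17 ± 0.922 CPM against 9.21 ± 1.09 CPM at P1 (SD, n = 3 each), but it did not pass, and scaled to the reads between peaks its log2 change was 0.81 in place of -0.34. Nebl, which encodes the nebulin-like Z-disc protein nebulette, had 8 tested peaks with log2 changes between -0.85 and 0.33. Its peak just upstream of the inner start held 49, 29 and 25 reads at P14 and 5, 12 and 22 at P1, which was 7.79 ± 1.13 CPM against 6.03 ± 3.8 CPM (SD, n = 3 each). The ages overlapped, and the log2 change was 0.33 (SE 0.42). The lowest Nebl change was at the peak from 17554521 to 17555574, with 15, 6 and 11 reads at P14 and 7, 12 and 9 at P1 (SE 0.53), and it was 0.21 when scaled to the reads between peaks. The peak with the most reads (17531815 to 17532909) overlapped between the ages at 10.9 ± 2.68 CPM at P14 and 12.2 ± 2.57 CPM at P1 (SD, n = 3 each).

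Mybpc3, the gene of cardiac myosin binding protein C, had 5 of 6 peaks higher at P14, with a median log2 change of 0.36, and 0 passed. All 6 were higher when scaled to the reads between peaks. Without P14 replicate 1, 3 were higher and 3 lower, and 4 to 6 were higher when another library was left out. With the share of reads in peaks as a covariate, 3 were higher and 3 lower. The peak with the smallest p (chromosome 2, 91124083 to 91125561) held 81, 31 and 26 reads at P14 and 7, 9 and 12 at P1. It stood at 11.3, 8.04 and 9.39 CPM in P14 replicates 1 to 3, against 3.61, 4.07 and 5.51 CPM in P1 replicates 1 to 3. The groups did not overlap and the peak was 2.18-fold higher, but a log2 change of 1.12 (SE 0.37) did not pass over all peaks (adjusted p = 0.144). The peak just downstream of the start (91118827 to 91119642) was at 8.16 ± 3.03 CPM at P14 and 4.82 ± 2.74 CPM at P1 (SD, n = 3 each), with overlapping ages and a log2 change of 0.81 (SE 0.45). The Mybpc3 peak with the most reads (91130501 to 91131977) averaged 13.5 ± 5.21 CPM at P14 and 12.7 ± 1.6 CPM at P1 (SD, n = 3 each), and the only one lower at P14 (91132584 to 91133281) had a log2 change of -0.18 (SE 0.42), or 1.03 when scaled to the reads between peaks.

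At the myomesin genes of the M-band, 9 of 12 tested peaks were lower at P14 when scaled within peaks, with a median log2 change of -0.15, and 0 passed. Scaled to the reads between peaks, all 6 at Myom1 and 5 of 6 at Myom2 were higher. A narrow Myom2 peak (chromosome 8, 15097168 to 15097653) came closest to the threshold. It held 14, 7 and 5 reads at P14 and 17, 12 and 13 at P1. In CPM this was 1.86 ± 0.0795 at P14 and 6.71 ± 1.79 at P1 (SD, n = 3 each), without overlap and with a log2 change of -1.82 (SE 0.49, adjusted p = 0.0542). This value lay just outside the threshold and the inner Cmya5 peak, at 0.0327, was the called member peak nearest to it. The other Myom2 peaks had log2 changes between -0.54 and 0.11. The highest of these (15130160 to 15130714) rested on 22, 14 and 13 reads at P14 and 1, 15 and 6 at P1, and the peak with the most reads (15128373 to 15129289) averaged 13.4 ± 3.23 CPM at P14 and 13.8 ± 2.39 CPM at P1 (SD, n = 3 each).

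The Myom1 start window shown above lies inside the gene, and the peak that overlaps it has its centre 15780 bp from the gene's 5′ end. This peak (chromosome 17, 71018799 to 71019425) held 26, 16 and 10 reads at P14 and 2, 9 and 10 at P1. It averaged 3.79 ± 0.31 CPM at P14 and 3.23 ± 1.92 CPM at P1 (SD, n = 3 each), and the log2 change of 0.21 (SE 0.54) was within its error. Myom1 peaks further into the gene had log2 changes from -0.56 to 0.46. The lowest of these, from 71077079 to 71078226, averaged 12.6 ± 3.03 CPM at P14 and 18.1 ± 4.78 CPM at P1 (SD, n = 3 each) and did not pass (adjusted p = 0.734), with a log2 change of 0.49 when scaled to the reads between peaks. The highest (71021172 to 71022141) held 45, 18 and 23 reads at P14 and 11, 10 and 8 at P1 (SE 0.43). The peak with the most reads, at the 3′ end (71125403 to 71126996), had overlapping ages and a log2 change of -0.41 (SE 0.26), or 0.71 when scaled to the reads between peaks.

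Apart from its 2 lost peaks, Cmya5 had 6 tested peaks with log2 changes between -0.36 and 0.75. In all, Cmya5 had 3 tested peaks higher and 5 lower, but 6 higher and 2 lower when scaled to the reads between peaks. Its widest peak (93094739 to 93097394) was at 18.9, 19.2 and 22.7 CPM in P14 replicates 1 to 3, against 27.3, 23.0 and 27.5 CPM in P1 replicates 1 to 3. The ages just failed to overlap there, with a log2 change of -0.36 (SE 0.23), or 0.73 when scaled to the reads between peaks. Toward the 3′ end, the peak from 93048486 to 93049271 was higher at P14, with 47, 20 and 13 reads against 3, 8 and 10 at P1, and a log2 change of 0.75 (SE 0.49) that did not pass. Xirp2 had a single peak (chromosome 2, 67497041 to 67497850), shared with Gm13601, of 18, 16 and 11 reads at P14 and 0, 10 and 10 at P1. Its log2 change of 0.15 had an SE of 0.66, and it was -0.4 without P1 replicate 1, the library with no read there. Scaled to the reads between peaks that change was 1.15. The 3 peaks that did not pass the filter, at Ldb3, Actn2 and Cmya5, held 77, 84 and 64 reads over the 6 libraries, with overlapping ages.

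Summed over the peaks of each gene, in CPM relative to the reads summed over all genes, and fitted over all 17688 genes tested, 0 members were gained and 0 lost, where 0.498% of all genes were gained and 2.35% lost. At an unadjusted p under 0.05 there were 2 of the 9, Ttn and Cmya5, against 12.9% of all tested genes. Ttn came closest, with 259, 307 and 314 CPM in P14 replicates 1 to 3, against 382, 376 and 359 CPM in P1 replicates 1 to 3. All 3 P14 libraries were below all 3 P1 libraries, with a log2 change of -0.35 (SE 0.1, adjusted p = 0.0661). Limma-voom called Ttn lower (-0.39, adjusted p = 0.0377), with 3.1% of all genes lost. EdgeR called it without P14 replicate 3 (-0.42, adjusted p = 0.0355), with 2.52% of all genes lost. Cmya5 was at 69.3, 79.6 and 83.6 CPM in P14 replicates 1 to 3, against 102.2, 98.8 and 102.3 CPM in P1 replicates 1 to 3, also without overlap (log2 change -0.39, SE 0.15, adjusted p = 0.181). The Cmya5 sum includes its 2 lost peaks, also the one upstream of the gene, so it is not separate from them. The share of all genes whose ages did not overlap was not counted.

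In order of their log2 change, the genes ran from Mybpc3 (0.37, SE 0.2) through Xirp2 (0.16, SE 0.66), Ldb3 (0.16, SE 0.19), Actn2 (0.08, SE 0.15), Nebl (-0.09, SE 0.2), Myom1 (-0.2, SE 0.15), Myom2 (-0.29, SE 0.16) and Ttn (-0.35, SE 0.1) to Cmya5 (-0.39, SE 0.15). Each value differed from its neighbour in this order by less than the larger of both standard errors. With 1 library left out the Mybpc3 value ran from 0.14 to 0.49, and it was lowest without P14 replicate 1. With the share of reads in peaks as a covariate it was -0.04. Per kb of peak, P14 levels lay between 5.68 CPM at Xirp2 and 12.4 CPM at Myom2, and P1 levels between 4.81 CPM at Xirp2 and 15.5 CPM at Ttn. Xirp2, Ldb3, Actn2 and Nebl had overlapping ages, as did Mybpc3, Myom1 and Myom2.

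**Figure D4:**
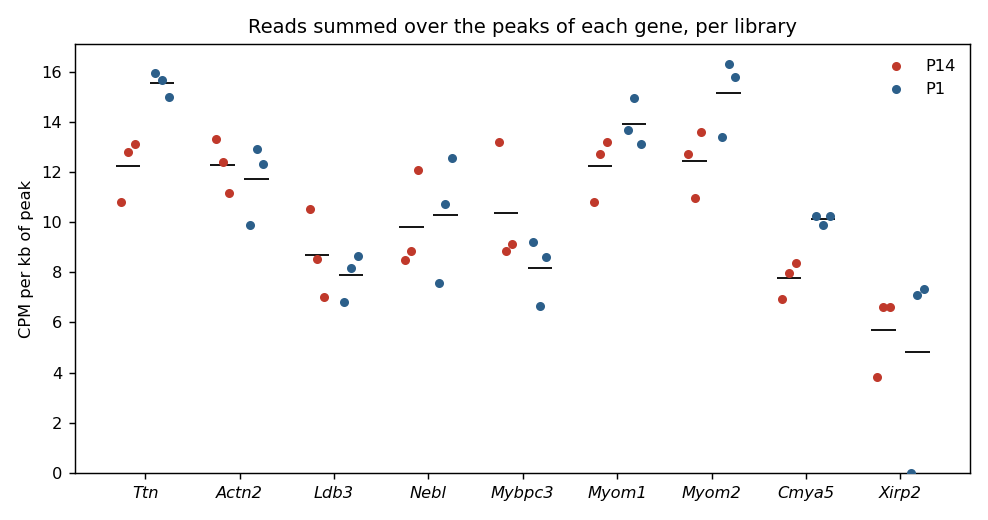
Reads summed over all peaks of a gene, in CPM per kb of peak (y axis), for each library. CPM is relative to the TMM-scaled reads summed over all genes. P14 is in red at the left and P1 in blue at the right of each gene. Horizontal marks are means of 3 libraries. Only at Ttn and Cmya5 do all P14 points lie below all P1 points, and the share of all genes with this pattern was not counted.

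All 69 peaks together took 0.0633% ± 0.00264 of the reads in peaks at P14 and 0.0659% ± 0.00246 at P1 (SD, n = 3 each), a difference about as large as the spread between libraries. Of all reads, in peaks or not, they took 0.0142% ± 0.00558 at P14 and 0.00827% ± 0.000887 at P1 (SD, n = 3 each). The direction of many members depended on what they were scaled to. Of the 66 tested peaks 27 were higher at P14 and 39 lower within peaks, but 61 higher and 5 lower when scaled to the reads between peaks. Those 5 were the 3 lost peaks and the Ttn and Myom2 peaks named above for a lower density over the flanks at P14. Both measures set the same peak reads against reads between peaks, so they are not independent. Scaled to the reads between peaks, the median log2 change was 1.1 over all peaks and 0.98 over the members. In that scaling 6 member peaks were gained and 0 lost, against 9.76% and 0.117% of all peaks. The 6 were a pair at Mybpc3, with log2 changes of 2.28 (adjusted p = 0.0145) and 2.03 (adjusted p = 0.0249), a pair at Actn2 (2.02 and 1.56), and 1 each at Ldb3 (1.99) and Cmya5 (1.89). By summed reads Mybpc3 (1.56), Ldb3 (1.32) and Actn2 (1.2) were gained under that scaling, against 39.5% of all genes. The summed log2 changes of Ttn (0.71), Cmya5 (0.68), Myom1 (0.87), Myom2 (0.81) and Nebl (0.96) were then opposite in sign, and none of these passed. The opposite sign is relative to the sums given above, scaled to the reads summed over all genes.

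**Figure D5:**
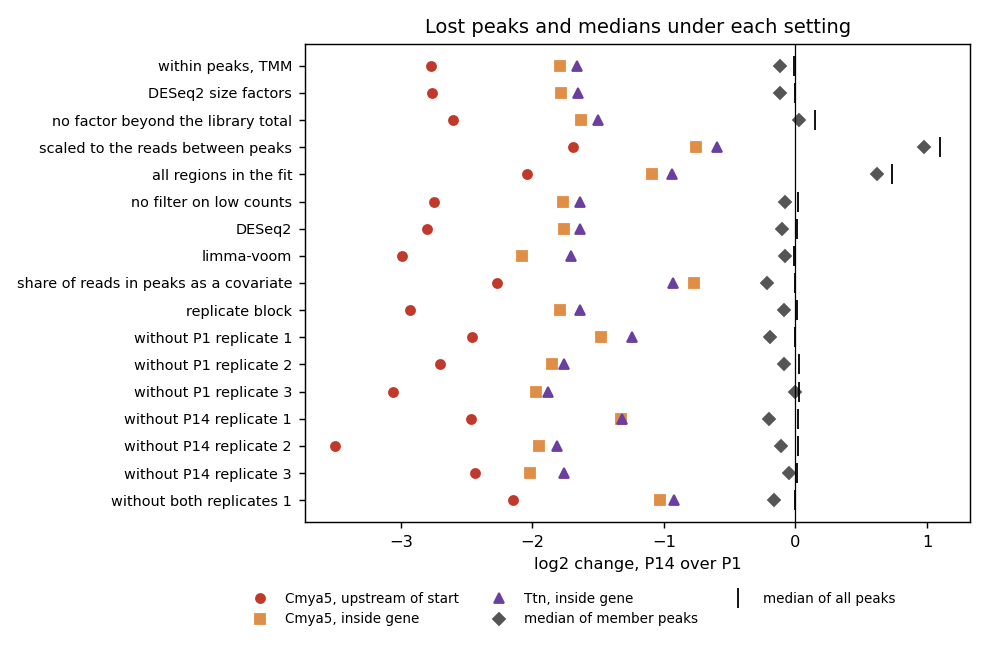
Log2 change (P14 over P1, x axis) of the 3 lost peaks and the median over the member peaks and over all peaks, under each setting of the analysis (y axis). The 3 lost peaks stay below 0 under every setting drawn, while both medians move to between 0.62 and 1.1 when all regions are fitted together or when scaled to the reads between peaks.

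Other genes of the Z-disc, M-band, thin filament caps and costameres were counted for comparison. Of 61 such genes 55 were named in the table, with 358 tested peaks, and 0 peaks were gained and 5 lost. This was 1.4% called, against 2.55% of all tested peaks, and the median log2 change was 0.04. The lost peaks lay at Myot (4.86-fold), the gene of the Z-disc protein myotilin, at Mybpc1 (4.26-fold), the slow skeletal myosin binding protein C, at Pdlim5, a PDZ-LIM partner of alpha-actinin, with a pair of peaks (3.73-fold and 4.68-fold), and at Myoz3 (4.84-fold), a calsarcin. The larger Pdlim5 change was at 1.97 ± 1.35 CPM at P14 and 8.25 ± 0.97 CPM at P1 (SD, n = 3 each, adjusted p = 0.0423). Among those higher at P14 the smallest p values were at Tcap, which caps titin at the Z-disc, with a log2 change of 1.93 (SE 0.54, adjusted p = 0.0647), at Cryab (1.36, SE 0.44, adjusted p = 0.126) and at Obsl1 (1.13, SE 0.37, adjusted p = 0.138), and none of these passed. The Tcap peak, shared with Pnmt, held 81, 18 and 14 reads at P14 and 2, 5 and 5 at P1. It passed the filter on low counts through its P14 libraries alone. The peaks at Myot and Myoz3 and the Pdlim5 peak with the larger change passed it through their P1 libraries alone. Without P1 replicate 1 none of the 5 lost peaks of this list passed, and the log2 change at Mybpc1 was -1.32 in place of -2.09. Without P14 replicate 1 or P14 replicate 2 none passed either, and without P1 replicate 2 and P14 replicate 3 there were 2 and 1.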

How the data were processed

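DNA of 6 ventricle libraries, 3 at each age, was enriched for methylated CpG and sequenced. Values in the table that the authors deposited are raw read counts, 1 whole number per region and library, with no correction for depth or region width. Tools listed in the submitters' processing notes are edgeR 3.2.4, bedtools, MACS and BWA, with GRCm38 as build, without saying what each was used for. Not given in the sources used here is how peaks were called, duplicates handled or hearts pooled. In the table, 221524 lines hold 213957 distinct regions, none with a mean below 10 reads per library.

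Regions that abut alternate between peaks and stretches between peaks. This was inferred here from the borders and gene names, and from read density for 56231 regions, since the table has no such column. Applied to the regions settled otherwise, read density led to the same class in 94.6%.

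The counts of peaks were fitted with edgeR 4.0.16 in R 4.3.3 (quasi-likelihood F test, TMM factors, age as the only term, the default filter set on the library totals), with Benjamini-Hochberg adjustment over all 96772 peaks tested. Reads summed per gene were fitted alike. An SE is the log2 change divided by the square root of F. DESeq2 1.42.0 and limma 3.58.1 were alternatives, beside other scalings, no filter, a covariate, a replicate block and libraries left out. The test was checked on simulated data. Gene places come from RefSeq (GRCm38.p6), and coordinates are 1-based. The members, lists, tests and the rule for named peaks were chosen with earlier results of these data known. The rule named every called member peak, the peak with the smallest p in each direction per member, the peak with the most reads, and further member peaks were named after their values were seen. From the comparison list it named called peaks and, in a direction with none, the 3 with the smallest p.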

Additional observations from a re-analysis of the deposited data

How the results depend on the processing

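The median SE of a member peak's log2 change was 0.37, which limits what single peaks can show. This SE holds read numbers and the spread between libraries together. Over 16 alternatives the 30 member peaks named gave 480 values. None reversed a call, 31 lost it, 7 gained one, and in 49 the sign of an uncalled change turned. The 9 gene sums gave 144 values, of which 5 gained a call and 22 turned in sign without one. Scaling to the reads between peaks turned the sign at 11 of the peaks and 5 of the sums.

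The 3 lost member peaks numbered 1 with no factor beyond the library total and 1 without both replicates 1, and 0 under scaling to the reads between peaks, with all regions in the fit, or with the share of reads in peaks as a covariate. Leaving out 1 library gave 0 to 3. Gained member peaks were 6 under scaling to the reads between peaks. The 5 lost peaks of the comparison list numbered 10 in DESeq2, 12 in limma-voom and 0 in those 5 settings (no factor, both replicates 1 left out, reads between peaks, all regions, covariate), with 0 to 5 when 1 library was left out, and 59 were gained under scaling to the reads between peaks. Member genes by summed reads were 3 gained under that scaling and 1 lost in limma-voom, with 0 to 1 lost when 1 library was left out. Over all peaks, 102 gained and 2362 lost became 9443 and 113 under scaling to the reads between peaks, 0 and 0 with all regions or the covariate, and 66 and 468 without both replicates 1. Lost peaks numbered 700 with no factor and 4197 in limma-voom. Leaving out 1 library gave 0 to 74 gained and 0 to 1611 lost, with none without P14 replicate 1 or P14 replicate 2. The members' median log2 change was 0.03 with no factor, 0.98 scaled to the reads between peaks, 0.62 with all regions and -0.22 with the covariate, and -0.2 to 0 with 1 library left out. The members' share of reads differed by -0.00263 percentage points of reads in peaks (-0.00403 to -0.00123 with 1 library left out) and by 0.00592 of all reads. The cause was not tested.

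Nothing in the labels says that a replicate number is shared between the ages. Deviations from the age mean correlated at -0.0489, -0.0459 and 0.0203 for same-numbered libraries. For different-numbered libraries they correlated at between -0.0359 and 0.0684. With few reads per peak such deviations hold much counting noise, so these values cannot decide whether libraries were paired. With a replicate block 0 peaks were gained and 0 lost over all peaks, the members and the comparison list, and the members' median log2 change was -0.09.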

Other observations

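Peaks at marker genes of the cells of the ventricle were also counted, as DNA signal and not as a measure of cell numbers. At 6 cardiomyocyte marker genes, 0 of 36 tested peaks were gained and 9 lost, against 0.105% gained and 2.44% lost over all peaks. All 9 lay at Ryr2, which encodes the cardiac ryanodine receptor. Of the 36 peaks 24 were lower at P14 and 12 higher, with a median log2 change of -0.2. At endothelial markers 0 of 40 peaks passed, at smooth muscle and pericyte markers 0 of 35, at blood and immune markers 0 of 16 and at cardiac fibroblast markers 0 of 14, in edgeR's quasi-likelihood test. At an unadjusted p under 0.05 the cardiomyocyte list had 16 of 36 peaks and the other lists 0, 1, 1 and 0 in the same order, against 7.6% of all tested peaks. The 16 include the 9 lost Ryr2 peaks, and how the rest were spread over genes was not counted. The part of the marker peaks in the values at the sarcomere genes was not tested.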
